A study of Mus musculus with 8 samples.

Results

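Chemokine ligands are secreted proteins that direct the migration of leukocytes. The 10 described here were listed as ligands made by T cells or induced by interferon, although Ccl22 and Ccl25 are better known from other cells. They are Cxcl10, Cxcl9, Cxcl11, Cxcl16, Ccl5, Ccl3, Ccl4, Ccl22, Ccl25 and Xcl1. They were chosen by a list of gene symbols, with the difference between CD44hi and CD44lo arrays already known, and every probe set whose only symbol in the platform annotation was a listed gene was taken. That gave 12 probe sets for 10 genes, of 20380 probe sets with 1 symbol for 12393 genes. All 10 genes were measured, and no filter on low values was applied. Because the values of this contrast chose the genes, the ligands' own levels and differences are a description and carry no test.

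Mouse T cell lymphoma cell lines deficient in Snf5, which encodes part of the SWI/SNF complex that repositions nucleosomes, were the source of the RNA, measured on 8 Affymetrix Mouse 430A 2.0 arrays. In 4 arrays the cells had been purified for high CD44 (CD44hi), a surface receptor for hyaluronan found on activated and memory T cells, and in 4 for low CD44 (CD44lo). Both groups share the loss of Snf5 and no treatment is named, so a line with Snf5 is not part of the comparison. The labels do not give the number of lines, the promoter that drove the deletion or whether the replicates of a group came from different cultures or mice. The p-values therefore cover only array-to-array spread, and this spread may be technical.

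Chemokines are grouped by the spacing of their first cysteines into CXC, CC and XC families, and they signal through G protein-coupled receptors on the responding cell. Interferon-gamma induces the CXC ligands of the receptor Cxcr3, while Ccl3, Ccl4 and Ccl5 are made by activated and cytotoxic T cells and draw other leukocytes. The Cxcl10 promoter is a textbook example of joint control by interferon-responsive elements and NF-kappaB sites. RNA levels say nothing of how much protein was secreted. In bulk samples such as these, fewer cells of a type and less RNA per cell cannot be told apart.

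Cxcl10 and Ccl5 were the members whose RNA stood apart between the groups, so the promoter windows of the ligands are shown first. RefSeq windows from 250 bases before to 50 bases after the annotated start (GRCm38.p6) were found for 6 members, namely Cxcl10, Cxcl9, Ccl3, Ccl22, Ccl25 and Xcl1, with a pair of windows for Ccl25. Those of Cxcl10 (chr5:92348840-92349139, minus strand) and its family neighbour Cxcl9 (chr5:92328030-92328329, minus strand) are printed 5′ to 3′, because both genes are known interferon-gamma targets and their RNA levels differ. Capitals mark matches to the searched motifs.
Cxcl10: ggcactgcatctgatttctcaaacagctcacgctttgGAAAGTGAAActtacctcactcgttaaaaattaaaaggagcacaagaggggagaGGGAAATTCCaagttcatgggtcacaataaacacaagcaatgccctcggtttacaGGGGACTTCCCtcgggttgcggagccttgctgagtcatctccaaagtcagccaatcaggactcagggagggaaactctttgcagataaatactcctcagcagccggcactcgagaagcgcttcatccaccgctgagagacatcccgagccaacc
Cxcl9: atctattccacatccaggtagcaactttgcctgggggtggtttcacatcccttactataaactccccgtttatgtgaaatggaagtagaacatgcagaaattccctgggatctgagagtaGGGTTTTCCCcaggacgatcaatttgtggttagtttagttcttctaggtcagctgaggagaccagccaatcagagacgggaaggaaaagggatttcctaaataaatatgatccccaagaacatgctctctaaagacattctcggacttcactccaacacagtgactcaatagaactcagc

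In the Cxcl10 window the core of the interferon-stimulated response element, GAAANNGAAA, was matched once, as GAAAGTGAAA starting 213 bases before the start site. The kappaB pattern, GGGNNNTTCC or GGGNNNTCCC, matched 3 times there, as GGGAAATTCC at 159 bases and as the overlapping GGGGACTTCC and GGGACTTCCC at 104 and 103 bases. The Cxcl9 window held 1 kappaB match, GGGTTTTCCC at 130 bases, and no match of the response element core. The interferon-gamma-activated site pattern, TTCNNNGAA, matched in 0 of the 7 windows. The windows of Ccl3, Ccl22, Ccl25 and Xcl1 held no match of any of these patterns. Read on both strands, the response element core was found in 3.44% of 32851 mouse promoter windows of this length, the activated-site pattern in 8.3% and the kappaB pattern in 10.4%. A match is a run of letters in this window, and binding of a factor was not measured.

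Cxcl10, the interferon-induced CXC ligand of Cxcr3, had the highest difference of the 10 ligands. Its log2 intensity on the CD44hi arrays 1 to 4 was 13.17, 13.05, 13.14 and 12.83, and on the CD44lo arrays 1 to 4 it was 9.16, 8.63, 9.22 and 8.47. Every CD44hi array lay above every CD44lo array, and among CD44lo arrays numbers 1 and 3 lay above numbers 2 and 4, by 0.64 on average. The group means were 13.05 ± 0.15 and 8.87 ± 0.38 (SD, n = 4 each), a log2 difference of 4.18 (SE 0.18), or 18.1-fold. Taken by replicate number the difference was 4.01, 4.43, 3.92 and 4.36 for numbers 1 to 4. The CD44lo arrays were thus not without signal for Cxcl10, since bacterial control probe sets, which have no target in mouse RNA, had array medians of 4.12 to 4.38.

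Cxcl9 and Cxcl11 are the other interferon-induced ligands of Cxcr3, and neither had a level in these cells that set the groups apart. Cxcl9 lay at 4.03, 4.03, 3.88 and 3.88 on the CD44hi arrays and at 3.89, 3.99, 4.07 and 3.81 on the CD44lo arrays, below the bacterial control median of its array on all 8. The groups overlapped and differed by 0.02 (SE 0.08). RNA of Cxcl9 was therefore not detected above control level in either group. Cxcl11, annotated by RefSeq in the reference strain as a transcribed pseudogene, had 2 probe sets. The first read 4.88, 5.01, 4.37 and 4.74 in CD44hi and 4.54, 4.17, 4.60 and 4.53 in CD44lo, a difference of 0.29 (SE 0.15) with overlapping groups, and it lay above the control median on 7 of 8 arrays. The second differed by 0.14 (SE 0.13) and lay above it on 4 of 8 arrays. Of the 3 ligands of Cxcr3, high RNA was thus seen for Cxcl10 and not for the other pair.

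Cxcl16, a membrane-bound CXC ligand of Cxcr6 that can be shed from the cell surface, also had 2 probe sets. Its brighter probe set read 6.75, 6.85, 6.52 and 6.81 in CD44hi and 6.66, 6.82, 6.78 and 6.89 in CD44lo. The groups overlapped, and the difference was -0.06 (SE 0.09). The dimmer probe set differed by 0.12 (SE 0.15) and exceeded the control median on 6 of 8 arrays, so the probe sets had opposite signs, each within about its standard error of 0.

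**Figure D1:**
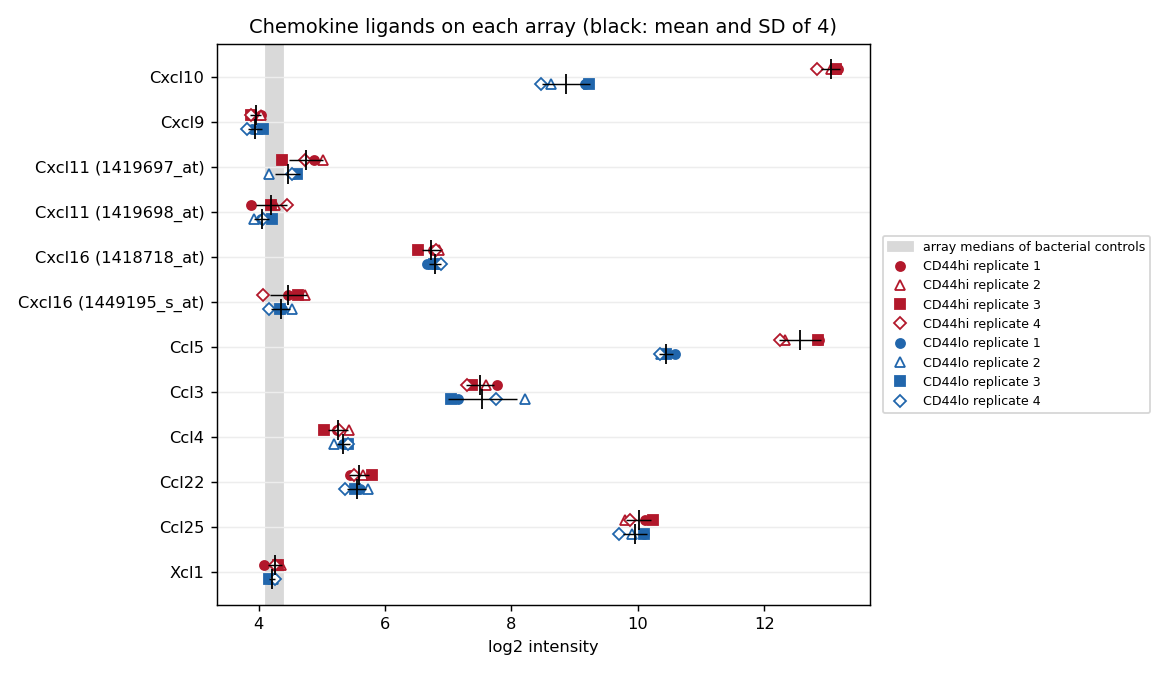
Log2 intensity (horizontal axis) of the 12 probe sets of the 10 chemokine ligands on each CD44hi and CD44lo array, with group means as bars. Cxcl10 (13.05 against 8.87) and Ccl5 (12.57 against 10.44) are the ligands whose groups do not overlap.

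Ccl5, a CC ligand whose receptors include Ccr1 and Ccr3 and that is typical of effector T cells, was the other ligand with separate groups. On the CD44hi arrays it read 12.86, 12.33, 12.85 and 12.25, and on the CD44lo arrays 10.59, 10.37, 10.44 and 10.35. Every CD44hi array lay above every CD44lo array, and within CD44hi numbers 1 and 3 lay above numbers 2 and 4, by 0.57 on average. The means were 12.57 ± 0.33 and 10.44 ± 0.11 (SD, n = 4 each), a log2 difference of 2.14 (SE 0.15), or 4.4-fold. By replicate number the difference was 2.28, 1.96, 2.41 and 1.89. It was larger for numbers 1 and 3 (mean 2.34) than for numbers 2 and 4 (1.93), whereas the difference of Cxcl10 was smaller for numbers 1 and 3 (3.97) than for 2 and 4 (4.40). The opposite order of these genes by replicate number was not tested.

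Ccl3 and Ccl4, the macrophage inflammatory proteins 1-alpha and 1-beta, are co-secreted by activated CD8 T cells with Ccl5. Ccl3 read 7.77, 7.60, 7.37 and 7.29 in CD44hi and 7.15, 8.21, 7.04 and 7.75 in CD44lo. Its means, 7.50 ± 0.22 and 7.54 ± 0.54 (SD, n = 4 each), differed by -0.03 (SE 0.25), but the direction depended on the replicate number. CD44hi was higher by 0.62 and 0.33 at numbers 1 and 3 and lower at numbers 2 and 4, where the differences were -0.61 and -0.46. That pattern came mainly from CD44lo arrays, where numbers 1 and 3 minus 2 and 4 gave -0.88. Ccl4 read 5.24, 5.43, 5.04 and 5.27 in CD44hi and 5.34, 5.19, 5.41 and 5.41 in CD44lo, a difference of -0.09 (SE 0.10) with overlapping groups.

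Ccl22, a ligand of Ccr4 made by dendritic cells and macrophages, read 5.44, 5.65, 5.79 and 5.50 in CD44hi and 5.60, 5.73, 5.52 and 5.37 in CD44lo. Its groups overlapped, with a difference of 0.04 (SE 0.11). Ccl25, the ligand of Ccr9 made by thymic and gut epithelium, had a strong signal on every array, with 10.11, 9.80, 10.24 and 9.87 in CD44hi and 10.09, 9.91, 10.10 and 9.70 in CD44lo. The groups of Ccl25 overlapped and differed by 0.06 (SE 0.13), while numbers 1 and 3 lay above 2 and 4 in both groups, by 0.34 and 0.29. Xcl1, or lymphotactin, the XC ligand made by activated CD8 T cells and NK cells, differed by 0.04 (SE 0.08). It read 4.09 to 4.36 in CD44hi and 4.16 to 4.26 in CD44lo, above the control median on 4 of 8 arrays. None of the last 3 ligands therefore had groups that separated.

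**Figure D2:**
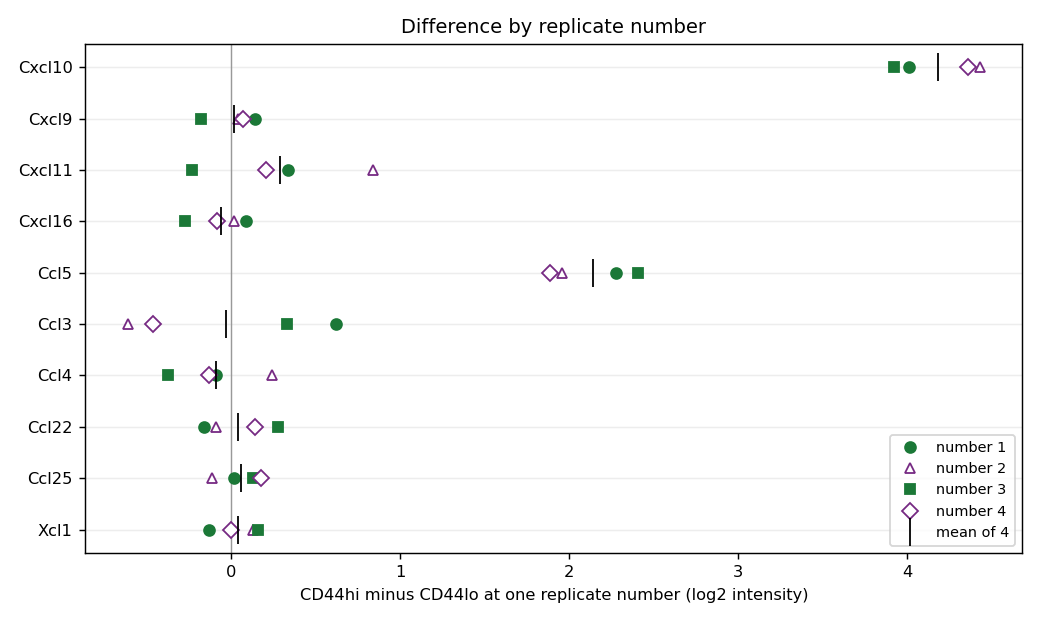
Log2 difference, CD44hi minus CD44lo, of each ligand at replicate numbers 1 to 4. The 4 values of Cxcl10 lie between 3.92 and 4.43 and those of Ccl5 between 1.89 and 2.41, while Ccl3 lies above 0 at numbers 1 and 3 and below 0 at numbers 2 and 4.

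Across the 10 ligands, 2 were called higher in CD44hi and 0 lower in the fit over all genes (limma, adjusted p under 0.05), and the differences of the 8 others ran from -0.09 to 0.29. Over all 12393 genes, 3.81% were called, 2.03% higher and 1.78% lower, and the median difference was 0.00 beside 0.04 for the ligands. With the replicate number as a block, 6.19% of all genes were called. The groups did not overlap for 2 of the 10 ligands and for 10.3% of all genes. These shares are given beside the ligands' counts and nothing is read from them, since the contrast chose the ligands.

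The sorting marker moved with its label, since the Cd44 probe set with the higher mean lay at 11.44 ± 0.28 on CD44hi arrays and at 5.55 ± 0.45 on CD44lo arrays (SD over 4 arrays). Array medians were 320.3 to 339.1 on the linear scale. T cell markers were present in both groups, including Cd3e at 13.06 against 13.10 and Cd8a at 13.86 against 13.87, but Thy1 and Cd5 lay within 1 log2 unit of the bacterial control median on every array. The log2 ratio of 3′ to 5′ Gapdh probe sets, which rises as RNA degrades, was 0.76 to 0.88 in CD44hi and 0.65 to 0.73 in CD44lo (exact two-sided permutation p = 0.0286, the smallest possible with 4 arrays a group). For Actb it was 0.47 to 0.79 and 0.38 to 0.61 (exact p = 0.229). The part of RNA quality in the differences of Cxcl10 and Ccl5 was not tested.

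Macrophages, dendritic cells and thymic epithelium are other known sources of these ligands, so markers of 8 other cell types were counted. Of 56 measured markers, 0 were called by limma in either direction (5 had an unadjusted p under 0.05), also 0 with the block, and 29 lay within 1 log2 unit of the control median on every array. The summed level of 12 macrophage and monocyte markers, as log2 of summed intensity, was 9.29 to 10.63 in CD44hi and 9.31 to 10.24 in CD44lo. This sum was mostly Cd68, with means of 9.18 in CD44hi and 8.98 in CD44lo. The other markers of that list had group means of 4.03 to 6.50. The summed level of 8 dendritic cell markers was 9.02 to 9.10 in CD44hi and 8.83 to 8.97 in CD44lo, so these groups did not overlap. Nor did they for 3 NK cell markers near control level (5.66 to 5.81 and 5.55 to 5.64). Taken as single genes, 10.3% of all genes had groups that did not overlap. Within the dendritic cell list, Batf3, a transcription factor of cross-presenting cells, differed by 0.36 with no overlap (limma adjusted p = 0.182) and Cd74, the invariant chain, by 0.42 with overlap (limma adjusted p = 0.705). Itgax and Cd209a of that list lay near control level. Of its 8 measured markers, 4 had a difference above 0, and the lowest were Zbtb46 at -0.18 and H2-Ab1 at -0.16. The B cell gene Ms4a1 had the highest difference of the 56 markers, at 4.39, 5.33, 4.25 and 6.01 on CD44hi arrays and 3.71, 3.94, 3.63 and 3.44 on CD44lo arrays (difference 1.31, no overlap, limma adjusted p = 0.0961). The 6 thymic epithelium markers summed to 10.99 to 12.08 in CD44hi and 11.20 to 11.81 in CD44lo. Nearly all of this was Epcam, an adhesion molecule of epithelia, with means of 11.42 and 11.37. The other measured markers of that list had group means of 4.25 to 6.30. The part of such cells in the ligands' differences was not tested.

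Among the receptors that read these ligands, 2 of 10 measured were called higher in CD44hi and 0 lower, with a median difference of 0.06. The shares over all genes were 2.03% higher and 1.78% lower. Ccr9, the receptor of Ccl25 that guides T cells to thymus and gut, read 9.73, 10.13, 9.79 and 9.99 in CD44hi and 7.20, 7.67, 7.66 and 7.69 in CD44lo. It rose by 2.35 on the log2 scale (SE 0.14, limma adjusted p = 2.33e-05), with no overlap, while its ligand Ccl25 differed by 0.06. Cxcr3, the receptor of Cxcl9, Cxcl10 and Cxcl11, read 11.57, 11.83, 11.60 and 11.99 in CD44hi and 11.02, 10.88, 11.05 and 10.99 in CD44lo. It rose by 0.76 (SE 0.11, limma adjusted p = 0.00365), so RNA of Cxcl10 and of its receptor were both higher in CD44hi. Cxcr6, the receptor of Cxcl16, differed by -0.20 with overlapping groups, and by 0.04 with its probe set of highest variance. The receptors Ccr1 and Ccr3 of Ccl5, Ccr4 of Ccl22 and Xcr1 of Xcl1 lay within 1 log2 unit of the control median on every array. The decoy receptors Ackr1, Ackr2 and Ackr4 had mean levels of 5.56 to 5.90 and were not called.

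Of 24 other measured chemokine ligands, 0 were called by limma (0 had an unadjusted p under 0.05), and their differences ran from -0.14 to 0.62 with a median of 0.01. The highest was Cxcl17, a mucosal ligand, with CD44hi arrays at 6.48, 5.63, 6.88 and 5.58 and CD44lo arrays at 5.49, 5.34, 5.75 and 5.53 (difference 0.62, limma adjusted p = 0.415). Of 7 genes that bind or cut chemokines, 1 was called, beside 3.81% of all genes. The called gene was Sdc4, a heparan sulfate proteoglycan that holds chemokines at the cell surface. It rose from 6.80 ± 0.19 to 7.94 ± 0.51 (SD, n = 4 each; difference 1.14, SE 0.23, limma adjusted p = 0.0292). The call of Sdc4 was lost without CD44hi array 4 or without CD44lo array 2, 3 or 4, with differences of 1.04 to 1.12.

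**Figure D3:**
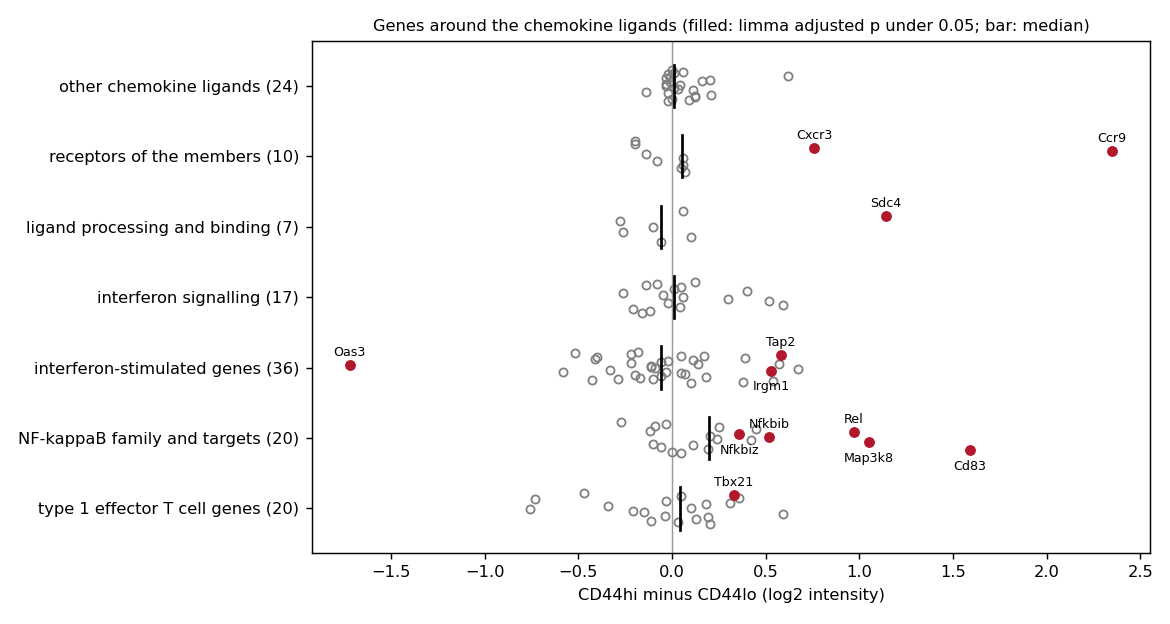
Log2 difference, CD44hi minus CD44lo, of the measured genes in 7 lists around the chemokine ligands, each point a gene, filled where called by limma, with the list median as a bar. Ccr9 at 2.35 and Cd83 at 1.59 are the highest called genes, and Oas3 at -1.72 is the lowest.

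Interferon signalling induces Cxcl10 in many cells, so genes of that pathway and its targets were counted. Of 17 measured interferon signalling genes, 0 were called by limma (3 had an unadjusted p under 0.05) and the median difference was 0.01. With the replicate block 2 of them were called higher, Ifng and Ifngr2, beside 6.19% of all genes called in either direction. Ifng, which encodes interferon-gamma, read 12.35, 12.93, 12.33 and 12.95 in CD44hi and 11.94, 12.21, 11.93 and 12.12 in CD44lo, a difference of 0.59 (SE 0.16, limma adjusted p = 0.108, with the block 0.0179). Ifngr2, which encodes a chain of its receptor, differed by 0.52 (SE 0.12, limma adjusted p = 0.0531, with the block 0.00743). In both genes the groups did not overlap, and CD44hi was higher at 4 of 4 replicate numbers.

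Of 36 measured interferon-stimulated genes, 2 were called higher and 1 lower by limma (10 had an unadjusted p under 0.05), with a median difference of -0.06. Over all genes 2.03% were called higher and 1.78% lower. The higher ones were Tap2, a peptide transporter subunit for antigen presentation (0.58, SE 0.09, limma adjusted p = 0.00889), and Irgm1, an immunity-related GTPase (0.53, SE 0.08, limma adjusted p = 0.0046). Oas3, an antiviral oligoadenylate synthetase, read 7.17, 6.67, 6.86 and 6.66 in CD44hi and 8.48, 8.71, 8.50 and 8.53 in CD44lo. It fell by 1.72 on the log2 scale (SE 0.12, limma adjusted p = 7.07e-05). With the block 3 of the 36 were called higher and 3 lower, and 6.19% of all genes were called.

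The NF-kappaB list had the highest median of the 7, at 0.20, with 5 of 20 measured genes called higher and 0 lower. The shares over all genes were 2.03% higher and 1.78% lower. Cd83, a surface protein of activated lymphocytes and dendritic cells, read 11.75, 11.53, 11.64 and 11.32 in CD44hi and 9.74, 10.22, 9.68 and 10.23 in CD44lo (difference 1.59, SE 0.16, limma adjusted p = 0.000446). Map3k8, a kinase that acts upstream of NF-kappaB and ERK, rose by 1.05 (limma adjusted p = 0.0177), and Rel, an NF-kappaB subunit of lymphocytes, by 0.97 (limma adjusted p = 0.0117). Nfkbib, which encodes the inhibitor I-kappaB-beta, rose by 0.52 (limma adjusted p = 0.0228), as did Nfkbiz, an atypical nuclear inhibitor family member, by 0.36 (limma adjusted p = 0.0383). The called genes thus hold a subunit, a kinase, a target and inhibitors of the pathway. Without CD44lo array 1 or 3 the list had 2 called genes, and without CD44hi array 4 or CD44lo array 2 or 4 it had 3. With the block 6 of the 20 were called higher and 0 lower, Relb being added (limma adjusted p with the block 0.0497). With it 6.19% of all genes were called.

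Type 1 effector genes accompany Ccl5 in cytotoxic and Th1 cells. Of 20 measured, 1 was called higher and 0 lower, with a median difference of 0.04, beside 2.03% higher and 1.78% lower over all genes. The called gene was Tbx21, the T-bet transcription factor, which read 13.06, 13.17, 13.14 and 13.15 on the CD44hi arrays and 12.86, 12.71, 12.89 and 12.74 on the CD44lo arrays. It differed by 0.33 (SE 0.07, limma adjusted p = 0.0454), and the call was lost with the block (0.0596) and when any single array was left out. With the block 1 gene of this list was called higher and 1 lower, beside 6.19% of all genes called. The higher was Ifng, at a difference of 0.59 (limma adjusted p with the block 0.0179). The lower was Il18r1, an interleukin-18 receptor chain, at a difference of -0.76 (limma adjusted p with the block 0.0238).

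**Figure D4:**
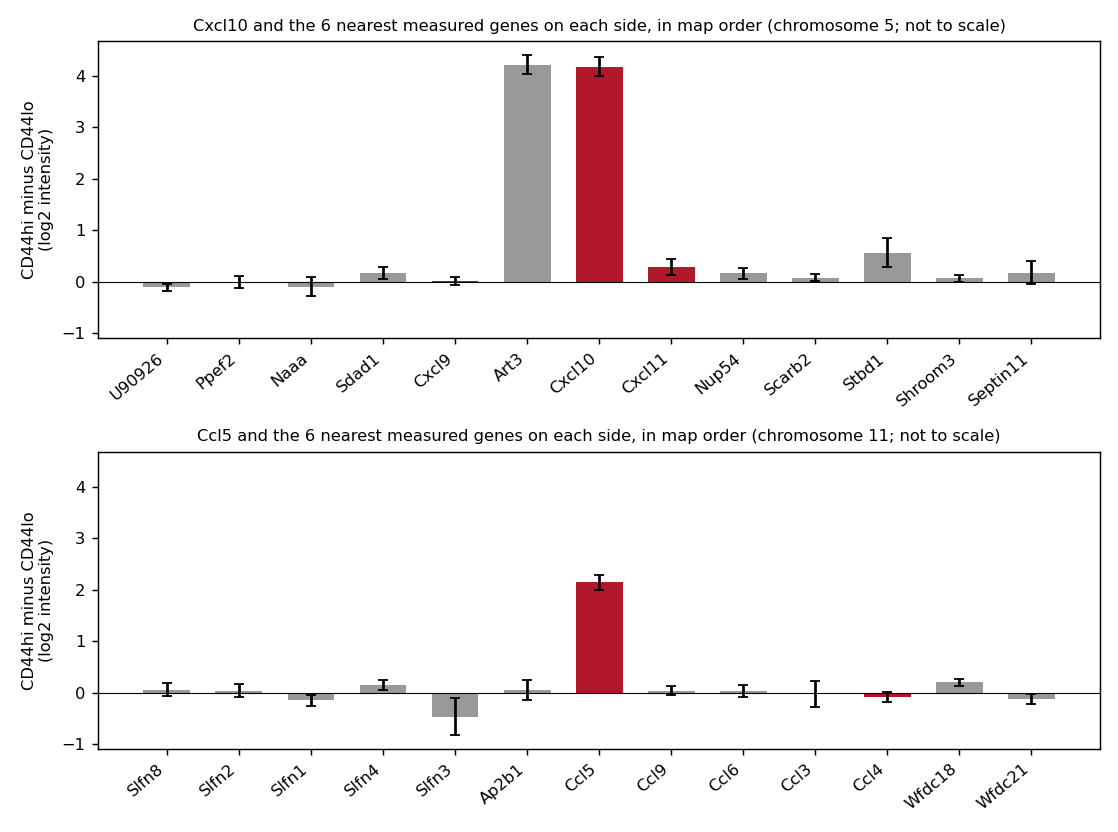
Log2 difference, CD44hi minus CD44lo, of the 6 nearest measured genes on each side of Cxcl10 and of Ccl5, in gene order with the ligand in the centre. Art3 beside Cxcl10 differs by 4.22, and the other neighbours lie between -0.47 and 0.57.

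The genes around Cxcl10 and Ccl5 were looked at after their values were seen, with RefSeq used only for gene order. Art3, an ADP-ribosyltransferase family gene whose RefSeq interval contains Cxcl10 and Cxcl11, read 11.20, 11.63, 11.35 and 11.78 in CD44hi and 7.60, 6.84, 7.52 and 7.12 in CD44lo. It rose by 4.22 on the log2 scale (SE 0.19, limma adjusted p = 4.34e-06), close in size to the 4.18 of Cxcl10. Whether the Cxcl10 probe set also detects Art3 transcripts was not tested. Of 9 other neighbours of Cxcl10 outside the ligand list, 0 were called by limma (0 had an unadjusted p under 0.05), and they differed by -0.10 to 0.57. Of 10 neighbours of Ccl5 outside the list, 0 were called by limma (1 had an unadjusted p under 0.05), and they differed by -0.47 to 0.20.

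Genes whose profile over the 8 arrays was most like that of each ligand were named as a description, among 1535 genes that ranged over at least 1 log2 unit. For Cxcl10 these were 2210016F16Rik, Hoxd11, Pdgfra, Cplx2 and Tnfrsf4, with Pearson r from 0.992 to 0.996. For Ccl5 they were Ccr7, Vav3, Cxcl10, Hoxd11 and Hmgn3, with r from 0.984 to 0.996. The arrays form 2 groups that differ in every one of these genes, so such r values mostly restate the group difference. Within groups, from deviations about the group means, r with Ccl5 was 0.95 for Ccr7, a lymph node homing receptor, and 0.91 for Hmgn3. It was 0.78 for Vav3, 0.53 for Cxcl10 and 0.51 for Hoxd11. Within CD44hi, Ccl5 also differed between odd and even replicate numbers, by 0.57, and these r values were not separated from that split.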

How the data were processed

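RNA of 8 samples was measured, 4 CD44hi and 4 CD44lo, grouped by title. The deposited intensity values were made by the authors with Robust Multichip Average (RMA), as stated per the labels. RMA subtracts background, normalizes between arrays and combines the probes of a set. For its version and settings, nothing is given in the sources used here. Such values are commonly log2, but these ran from 7.61 to 36128, so they were read as linear and log2 was taken with no pseudocount. RMA can understate differences near background. Of 22690 probe sets, 20380 carry 1 symbol, 691 several and 1555 none, beside 64 controls. The probe set of highest mean stood for each gene.

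Groups were compared with limma 3.58.1 (lmFit, eBayes) in R 4.3.3, with Benjamini-Hochberg adjustment over 12393 genes and a threshold of 0.05; the script was tested on simulated data. The members, lists and rules were chosen with earlier results of these data known. Named genes are all members and their receptors, up to 4 called genes of each list by size of difference, or 2 uncalled where none was called, and 5 genes most alike to Cxcl10 and Ccl5. The rule was also applied to the marker lists and gave Batf3, Cd74, Ms4a1, Thy1, Cd2, Elane and Fn1. Art3, Nfkbiz, Relb, Il18r1 and the other markers named lie outside this rule and were picked with their values known.

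The groups share replicate numbers 1 to 4. Across genes, deviations from the group mean correlated between arrays of 1 number at 0.574, 0.404, 0.533 and 0.531. All were over 0.1, the limit set for taking the numbers to pair arrays, so a fit with the number as a block was added. The main fit had no block, and blocked counts are given for the lists whose calls they change. Odd numbers also resembled each other (0.521 and 0.471 between 1 and 3), as did even ones (0.372 and 0.458 between 2 and 4). These correlations therefore cannot tell pairing by single number from likeness within odd and even sets. Alternatives were other centring, normalization, probe set choice, variance models, filters, thresholds, array weights, the block and leaving out each array. The number of arrays limits the precision. Some listed genes are not reported here.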

Additional observations from a re-analysis of the deposited data

Results flagged for a closer look

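None of the 10 chemokine ligands had an array far from the rest of its group, but 7 of 106 groups of 4 arrays among the genes examined did, and chance alone sets about 1 group in 20 apart. Among receptors, Ccr9 on CD44lo array 1 read 7.20 beside 7.66 to 7.69 on the others, Ccr3 on CD44lo array 3 read 3.73 beside 3.98 to 4.02, and Xcr1 on CD44hi array 3 read 4.48 beside 3.98 to 4.03. Tap2 on CD44hi array 3 read 11.55 beside 11.68 to 11.70. Among cell type markers, Cd2 on CD44hi array 1 read 5.49 beside 6.01 to 6.10, Elane on CD44lo array 1 read 5.14 beside 4.67 to 4.71, and Fn1 on CD44lo array 3 read 12.35 beside 12.22 to 12.23.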

How the results depend on the processing

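The difference of Cxcl10 stayed between 3.97 and 4.40 and that of Ccl5 between 1.93 and 2.34 over 19 alternatives each, and neither changed sign. The 145 values of the 8 other ligands lay within -0.54 to 0.53, and 5 of them moved by more than the spread between arrays. Genes called higher in CD44hi, 252 in all, were 102 among genes of above-median mean (6196 tested), 403 with array weights, 382 with the replicate block and 141 at an adjusted p under 0.01. Genes called lower, 220 in all, were 113, 418, 385 and 100 under these settings, and 127 to 226 with 1 array left out (128, 142 and 127 without CD44lo array 2, 3 or 4). With above-median genes only, called receptors were 1, called ligand-binding genes 0 and interferon-stimulated genes called lower 0. That setting removes genes of below-median mean before the fit, so a called gene can leave these counts without being tested again. With array weights, 1 other ligand, 1 interferon signalling gene and 4 interferon-stimulated genes were called higher, and 2 interferon-stimulated and 2 type 1 genes lower. With the replicate block, 2 interferon signalling genes were called higher, and 3 interferon-stimulated genes and 1 type 1 gene lower. Quantile normalization called 1 interferon signalling gene. Type 1 genes called higher were 0 with median centring, 0 with the probe set of highest variance and 2 with a trended, robust variance. With 1 array left out, called ligand-binding genes were 0 to 1, interferon signalling genes 0 to 1, NF-kappaB genes 2 to 5, type 1 genes higher 0 to 0 and lower 0 to 1. Of 639 values of 42 other named genes, 607 kept their side of the threshold, 23 lost a call and 9 gained one. Most of the 42 were uncalled in the main fit, cell type markers among them, and only a called gene can lose a call. Genes named outside the rule, such as Art3, and those most alike to Cxcl10 and Ccl5 are not among the 42. The sign changed in 8 values of 6 genes, none of them called in either fit, with differences of at most 0.20 in size. Apart from genes removed by the above-median setting, the cause of these changes was not tested. Probe sets near the bacterial control medians, such as those of Cxcl9 and Xcl1, cannot show small differences.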

Other observations

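Probe sets shared by near-identical chemokine gene copies were left out of the gene-level fit and are given as values. A probe set of the Ccl27 copies, skin-homing T cell ligands, read 8.71, 9.95, 8.74 and 10.25 in CD44hi and 8.99, 9.83, 8.96 and 9.88 in CD44lo. Arrays 2 and 4 lay above arrays 1 and 3 in both groups, and the groups differed by 0.00 (limma adjusted p = 0.999). A further Ccl27 probe set had the same order of arrays, with numbers 1 and 3 minus 2 and 4 at -1.25 in CD44hi and -0.92 in CD44lo. The macrophage marker Cd68 showed the same order, with CD44hi arrays at 8.01, 10.23, 8.20 and 10.29 and CD44lo arrays at 8.20, 9.75, 8.23 and 9.76, whereas Ccl25 had the opposite one. Probe sets of the Ccl21 and Ccl19 copies, lymph node ligands of Ccr7, differed by 0.18 (limma adjusted p = 0.55) and 0.27 (limma adjusted p = 0.537).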
